A study of Mus musculus with 5 samples.

Results

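Interferon-stimulated genes were followed in adherent peritoneal macrophages of wild-type mice and of mice that lack c-Jun in myeloid cells. The list held 37 genes, named from what is known of their induction by interferon. Of these, 33 had at least 1 array probe whose transcript accession led to the gene's symbol, among 21154 symbols with a probe, and all 33 passed the filter on dim probes. No probe was matched for Mx1, Mx2, Ifi203 and Ifi205, which were not analysed here; in the reference strain Mx1 and Mx2 are listed as transcribed pseudogenes. The wild-type group had 3 arrays, from mice numbered 5, 11 and 14 in the titles. The c-Jun-deleted group had 2 arrays, from mice 1 and 9, with the genotype cJunfl/fl LysMCre-/+. Mice were 8 weeks old, on a mixed 129/C57Bl6 background and of either sex. The wild-type animals were littermates, and the labels do not say whether they carried floxed alleles. LysM-Cre is a recombinase driven from the lysozyme 2 gene and is active in macrophages, neutrophils and part of the monocytes, so the deletion was not limited to 1 cell type. The source names of the c-Jun-deleted samples give another Cre, Mx. Mx-Cre is itself driven by an interferon-inducible promoter, so the labels leave unsettled whether the driver belongs to the pathway described here. The RNA came from peritoneal cells that stuck to plastic overnight, so each array averages the adherent cells, and fewer cells of a type cannot be told apart from less RNA per cell.

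Interferons are secreted proteins that cells release when they sense viral or bacterial nucleic acid. Type I interferons (interferon alpha and beta) bind the receptor pair Ifnar1 and Ifnar2 and activate a complex that holds Stat2 and Irf9 and binds the interferon-stimulated response element (ISRE) in target promoters. Interferon gamma, made mainly by T and NK cells, binds Ifngr1 and Ifngr2 and acts on a different element, called GAS. The target genes encode sensors, antiviral enzymes and membrane proteins, and macrophages transcribe many of them at a tonic level without infection. c-Jun is a subunit of AP-1, a transcription factor that binds another short element.

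The promoter stretches below show what many of the genes share besides their name. RefSeq promoter windows on build GRCm38.p6, from 250 bases before to 50 bases after a gene's start, were present for 26 of the 33 measured genes. The core of an ISRE, spelled as GAAA, any 2 bases and GAAA again, was searched on both strands. It occurred in a window of 16 of these 26 genes (61.5%), against 3.99% of all 27025 symbols with a window. The 7 stretches below were chosen from genes described in the results that follow, and for most of these genes the genotypes overlapped. Each is printed 5′ to 3′ on the gene's strand, ends at or before the start of the gene, and has every ISRE core in capitals. A core that starts with TTTC lies on the opposite strand.

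Isg15, chr4:156200845-156200926, minus strand: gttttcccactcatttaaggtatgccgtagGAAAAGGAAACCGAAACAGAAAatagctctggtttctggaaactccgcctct
Ifit1, chr19:34640755-34640843, plus strand: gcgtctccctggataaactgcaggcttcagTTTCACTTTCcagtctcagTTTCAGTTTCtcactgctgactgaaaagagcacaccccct
Ifit3, chr19:34583343-34583446, plus strand: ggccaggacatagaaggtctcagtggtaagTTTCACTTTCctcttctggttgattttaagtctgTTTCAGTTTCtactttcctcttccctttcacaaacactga
Gbp2, chr3:142620574-142620643, plus strand: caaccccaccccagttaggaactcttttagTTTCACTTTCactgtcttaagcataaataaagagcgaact
Rsad2, chr12:26456533-26456602, minus strand: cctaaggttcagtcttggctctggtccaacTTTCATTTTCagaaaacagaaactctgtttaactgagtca
Oas1a, chr5:120907526-120907575, minus strand: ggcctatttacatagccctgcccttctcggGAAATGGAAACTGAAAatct
Oas1g, chr5:120887614-120887661, minus strand: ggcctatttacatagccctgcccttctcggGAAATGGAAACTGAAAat

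The Isg15 stretch holds 3 cores that overlap, the first starting at base -78 from the gene's start. Ifit1 and Ifit3 hold 2 separate cores each, and those of Ifit1 start at bases -104 and -85. The stretches of Oas1a and Oas1g were identical over 48 bases, the whole of the Oas1g stretch. The AP-1 letters TGANTCA occurred in 7 of the 26 genes (26.9%; Ifit3, Oas3, Rsad2, Gbp2, Xaf1, Trim30a and Ifitm3) and in 8.97% of all symbols. In the Rsad2 stretch they form the TGAGTCA at the end, starting at base -87. The GAS letters TTCNNNGAA occurred in 7 genes as well, against 9.55% of all symbols; both motifs read the same on either strand. A match describes letters in a window and does not show that a factor binds there.

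A level is the log2 processed signal of a probe minus the log2 of the array's 75th percentile over non-control spots, so 0 stands for that percentile. Levels of different genes come from different probes and are not compared. Wild-type values are given in the order of mice 5, 11 and 14, and c-Jun-deleted values in the order of mice 1 and 9. Between 53.0% and 60.6% of the non-control spots were well above background on an array. Jun, the targeted gene, read 3.21, 3.75 and 3.17 in the wild-type mice, against 2.76 and 2.71 in the deleted ones (limma adjusted p = 0.391); whether its probe lies in the deleted part was not analysed here. All 8 macrophage markers looked at were well above background, and markers of each other cell type looked at were measured as well. The 7 B cell markers summed to between 40.0 and 80.2 times the 75th percentile in wild-type and to 267 and 391 in c-Jun-deleted samples. Xist was at -4.53 on wild-type 11 and between -0.04 and 0.74 on the other arrays. The Y-linked Uty was well above background on wild-type 11 (-2.06) and on wild-type 14 (-3.97). Xist and Uty serve as markers of sex, and by Xist wild-type 11 stood apart from all other arrays. Its sex cannot be told apart from other traits of that mouse, and a part of sex in the levels was not tested. The arrays were on 2 slides that also differ in scan time. On slide 1 were wild-type 5 and c-Jun-deleted 1; the other 3 arrays, wild-type 11 and 14 with c-Jun-deleted 9, shared slide 2.

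The main comparison asked how these genes differed between the genotypes. By the group means 31 of the 33 genes were lower in c-Jun-deleted macrophages, where 61.4% of all 27938 genes tested were lower. The median difference over the 33 genes was -0.63 on the log2 scale, against -0.09 over all genes tested. None of the differences passed limma's test: 0 of 33 genes had a Benjamini-Hochberg adjusted p below 0.05 (range 0.277 to 0.968), as did 0% of all genes tested. At an unadjusted p below 0.05, 4 genes were lower, namely Oas1g, Ifi204, Ifitm3 and Ifih1, where 6.53% of all genes were lower at that level. Both c-Jun-deleted arrays lay below every wild-type array for 10 genes, where this held for 20.2% of all genes tested. The groups overlapped for 22 genes, and for Isg20 both c-Jun-deleted arrays lay above. Of all 27938 genes tested, 18566 had overlapping groups and 3722 had both deleted arrays above. The share of the 33 genes with overlap was thus near that of all genes. Leaving out wild-type 11 gave a median difference of -0.305, leaving out c-Jun-deleted 9 gave -0.30, and leaving out c-Jun-deleted 1 gave -1.06. The 4 genes at an unadjusted p below 0.05 became 11 without c-Jun-deleted 1 (5.36% of all genes) and only 1 when c-Jun-deleted 9 was left out (3.68% of all genes). The 10 genes with no overlap became 26 without c-Jun-deleted 1 and 21 without wild-type 5, where the shares of all genes were 36.0% and 25.4%.

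**Figure D1:**
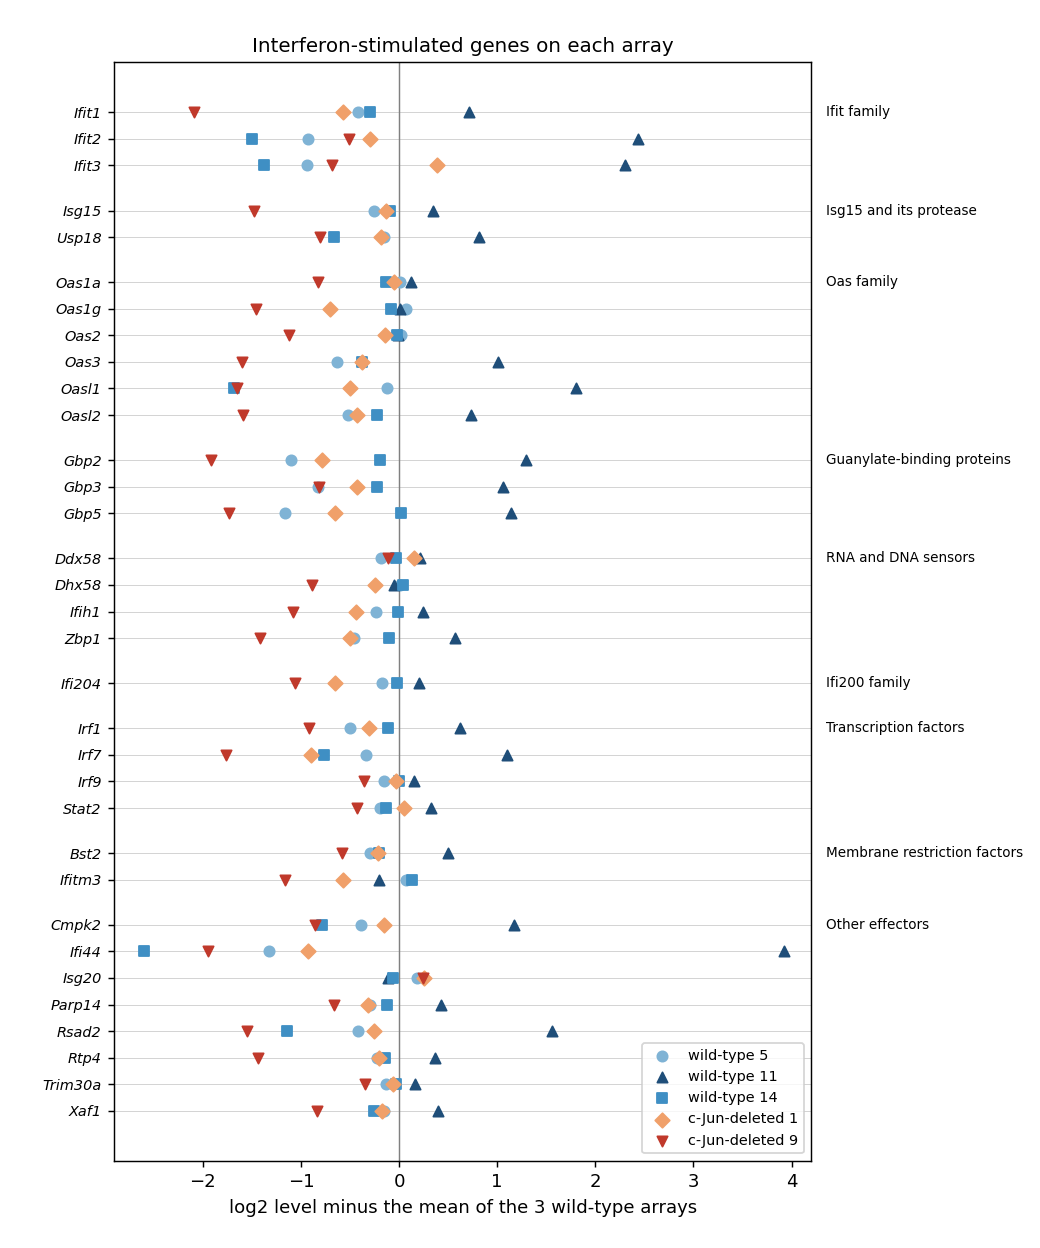
Log2 level of each of the 33 genes on each array minus the mean of the 3 wild-type arrays, grouped by role; blue symbols are wild-type and red or orange symbols c-Jun-deleted samples. Wild-type 11 (dark triangles) lies farthest right for 28 genes and c-Jun-deleted 9 (red triangles) farthest left for 26.

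The arrays at the ends of the range were mostly the same from gene to gene. Wild-type 11 was the highest of the 5 arrays for 28 of the 33 genes (84.8%), against 22.3% of all genes tested. The lowest was c-Jun-deleted 9 for 26 (78.8%), against 28.5% of all genes tested. Both held at once for 22 genes (66.7%), against 7.51% of all genes tested. Relative to the wild-type mean, the median over the 33 genes was 0.50 on wild-type 11 and -1.06 on c-Jun-deleted 9. The other 3 arrays lay close together, at -0.26 on wild-type 5, -0.13 on wild-type 14 and -0.30 on c-Jun-deleted 1. Set against wild-type 5 and 14 alone, c-Jun-deleted 1 was below both for 10 genes, between them for 15 and above both for 8, with a median difference of 0.02. Over all 27938 genes tested these counts were 12996, 7440 and 7502, with a median difference of -0.09. The standard deviation between wild-type mice had a median of 0.44 over the 33 genes and of 0.24 over all genes tested. Within slide 1 the median difference was 0.08 with 14 of 33 genes lower, and within slide 2, which holds both of the arrays that stand apart, it was -1.15 with 32 lower. Over all 27938 genes tested the medians within the slides were -0.10 and -0.07, with 17143 and 15762 genes lower.

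Ifit proteins bind foreign or unmethylated RNA ends and block its translation, and Ifit2 and Ifit3 spread widely between wild-type mice. Ifit1 was at -1.02, 0.12 and -0.89 in wild-type 5, 11 and 14 and at -1.16 and -2.68 in c-Jun-deleted 1 and 9. Both c-Jun-deleted arrays were below the wild-type ones, but c-Jun-deleted 1 only by a little (difference -1.33, SE 0.59, limma adjusted p = 0.441). Ifit2 read -3.17, 0.19 and -3.74 in the wild-type mice, against -2.54 and -2.75 in the deleted ones. Ifit3 read -1.36, 1.88 and -1.79 in the wild-type mice, against -0.04 and -1.11 in the deleted ones. For both genes wild-type 11 alone was high, and the c-Jun-deleted arrays lay above the other wild-type pair. Wild-type 11 was 12.5-fold above the mean of wild-type 5 and 14 for Ifit2 and 11.0-fold for Ifit3. The differences of -0.40 (SE 1.26) for Ifit2 and -0.15 (SE 1.23) for Ifit3 became 0.81 and 1.00 without wild-type 11. With c-Jun-deleted 9 left out, the Ifit1 difference was -0.57.

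Isg15 is a ubiquitin-like protein that is attached to other proteins, and Usp18 is the protease that removes it and also damps the type I receptor. Isg15 read 3.84, 4.45 and 4.01 in the wild-type mice, against 3.97 and 2.63 in the deleted ones. Only c-Jun-deleted 9 was low, 2.53-fold below c-Jun-deleted 1, which lay within the wild-type range. The difference was -0.80 (SE 0.46, limma adjusted p = 0.510), and it was -0.13 without c-Jun-deleted 9. Usp18 read 1.58, 2.55 and 1.06 in the wild-type mice, against 1.55 and 0.93 in the deleted ones. The groups overlapped, with wild-type 11 above all others (difference -0.49, SE 0.50, and -0.08 without that array).

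The oligoadenylate synthetases make a short RNA-like messenger that switches on an RNA-degrading enzyme; Oasl1 and Oasl2 are relatives. All 6 genes of the family were lower by the group means, with differences from -1.08 to -0.43, and c-Jun-deleted 9 was the lowest array for 5 of them. Oas1a read 5.65, 5.76 and 5.51 in the wild-type mice, against 5.59 and 4.82 in the deleted ones. The wild-type mice were close to each other here and c-Jun-deleted 1 lay among them (difference -0.43, SE 0.27). Oas1g read -3.75, -3.81 and -3.90 in the wild-type mice, against -4.52 and -5.28 in the deleted ones. Both c-Jun-deleted arrays were below the wild-type ones, which spanned little (difference -1.08, SE 0.26, limma adjusted p = 0.277). With the normexp background correction the Oas1g difference was -0.33 (limma adjusted p = 0.417), so its size depends on how the background is treated. The Oas1g probe was not well above background on c-Jun-deleted 9, and near-identical copies such as Oas1a could contribute to it.

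Oas2, Oas3, Oasl1 and Oasl2 differed by -0.63, -0.99, -1.07 and -1.01 (SE 0.32 to 1.09). Of these, only Oas2 had groups that did not overlap, with 4.55 ± 0.02 (SD, n = 3) in wild-type and 4.41 and 3.43 on c-Jun-deleted 1 and 9. Oasl1, which restrains translation of Irf7 messenger RNA, read 1.93, 3.86 and 0.38 in the wild-type mice, against 1.56 and 0.41 in the deleted ones. Wild-type 11 was high and wild-type 14 as low as c-Jun-deleted 9, and the Oasl1 difference was -0.17 without wild-type 11. With c-Jun-deleted 9 left out, the differences were -0.05 for Oas1a, -0.70 for Oas1g, -0.14 for Oas2, -0.38 for Oas3, -0.50 for Oasl1 and -0.43 for Oasl2.

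Guanylate-binding proteins are large GTPases that attack vacuoles holding microbes, and their genes are strongly induced by interferon gamma. Gbp2 read 4.69, 7.07 and 5.59 in the wild-type mice, against 5.00 and 3.87 in the deleted ones. Wild-type 11 was 3.82-fold above the mean of wild-type 5 and 14, and c-Jun-deleted 1 lay between wild-type 5 and 14 (difference -1.35, SE 0.80, limma adjusted p = 0.525). Gbp5 and Gbp3 differed by -1.20 (SE 0.76) and -0.62 (SE 0.59), again with wild-type 11 as the highest array and overlapping groups. Without wild-type 11 the differences were -0.71 for Gbp2, -0.63 for Gbp5 and -0.10 for Gbp3, and with c-Jun-deleted 9 left out they were -0.78, -0.66 and -0.43.

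Among the nucleic acid sensors, Ifih1 (Mda5) and Ddx58 (RIG-I) detect double-stranded RNA, Dhx58 (Lgp2) modulates both, and Zbp1 detects Z-form nucleic acid. Ifih1 read 2.48, 2.96 and 2.70 in the wild-type mice, against 2.28 and 1.63 in the deleted ones (difference -0.76, SE 0.27, limma adjusted p = 0.386). Dhx58 read 1.67, 1.60 and 1.69 in the wild-type mice, against 1.41 and 0.77 in the deleted ones (difference -0.57, SE 0.23). Zbp1 read 3.10, 4.13 and 3.45 in the wild-type mice, against 3.06 and 2.14 in the deleted ones (difference -0.96, SE 0.43). In these 3 genes both c-Jun-deleted arrays lay below the wild-type ones, for Zbp1 by only -0.03 between c-Jun-deleted 1 and wild-type 5. With c-Jun-deleted 9 left out, the differences were -0.44 for Ifih1, -0.24 for Dhx58 and -0.50 for Zbp1. Ddx58 read 3.28, 3.68 and 3.43 in the wild-type mice, against 3.62 and 3.35 in the deleted ones, and these overlapped. Its difference was 0.02 (SE 0.19), and a second Ddx58 probe gave -0.17.

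Ifi204, a DNA-binding protein of the Ifi200 family, showed a gap between the groups. It read 5.65, 6.03 and 5.80 in the wild-type mice, against 5.18 and 4.76 in the deleted ones. Both c-Jun-deleted arrays were below all wild-type arrays, 1.81-fold on average (difference -0.86, SE 0.21, limma adjusted p = 0.280). On c-Jun-deleted 1 alone the Ifi204 level minus the wild-type mean was -0.65. Within slides 1 and 2 the Ifi204 difference was -0.47 and -1.15.

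Ifitm3, which sits in endosomal membranes and hinders virus entry, had a similar gap but was not high on wild-type 11. It read 6.80, 6.52 and 6.86 in the wild-type mice, against 6.15 and 5.57 in the deleted ones (difference -0.87, SE 0.24, limma adjusted p = 0.305). Leaving out wild-type 11 gave -0.97 for Ifitm3 and leaving out c-Jun-deleted 9 gave -0.57; within slides 1 and 2 it was -0.65 and -1.12. Bst2 (tetherin), which holds budding virus at the cell surface, averaged 4.24 ± 0.44 (SD, n = 3) in wild-type mice against 4.03 and 3.65 in the deleted ones. The Bst2 groups overlapped (difference -0.40, SE 0.31).

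Transcription factors of the pathway came next. Irf7, the master regulator of interferon alpha genes, read 2.21, 3.65 and 1.79 in the wild-type mice, against 1.65 and 0.79 in the deleted ones. Both c-Jun-deleted arrays were below wild-type 14, the lowest of the wild-type arrays (difference -1.33, SE 0.64, limma adjusted p = 0.463). Leaving out wild-type 11 gave -0.78 for Irf7, and leaving out c-Jun-deleted 9 gave -0.90. Irf1, a factor induced early by interferon gamma, read 6.11, 7.23 and 6.50 in the wild-type mice, against 6.31 and 5.70 in the deleted ones. The Irf1 groups overlapped, with wild-type 11 high and c-Jun-deleted 9 low (difference -0.61, SE 0.40, and -0.30 with either of them left out).

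The subunits that carry the type I signal to the ISRE spread less. Irf9 read 3.93, 4.22 and 4.08 in the wild-type mice, against 4.05 and 3.72 in the deleted ones (difference -0.19, SE 0.18). Stat2 read 3.30, 3.83 and 3.37 in the wild-type mice, against 3.55 and 3.08 in the deleted ones (difference -0.19, SE 0.25). In both genes c-Jun-deleted 1 lay within the wild-type range, and the order of the arrays had wild-type 11 on top and c-Jun-deleted 9 at the bottom.

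The remaining 8 genes are effectors of several kinds. Rtp4, a chaperone of membrane receptors, read 5.51, 6.11 and 5.60 in the wild-type mice, against 5.53 and 4.30 in the deleted ones. Like Isg15 it was low only on c-Jun-deleted 9 (difference -0.82, SE 0.43, and -0.21 without that array). Rsad2 (viperin), which makes a chain-terminating nucleotide, read -1.06, 0.92 and -1.78 in the wild-type mice, against -0.90 and -2.19 in the deleted ones. Cmpk2 lies next to Rsad2 in the genome and supplies its substrate. The difference was -0.90 (SE 0.92) for Rsad2 and -0.50 (SE 0.65) for Cmpk2, and without wild-type 11 it was -0.12 and 0.08.

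Ifi44 spread widely between wild-type mice. It read -4.29, 0.96 and -5.56 in the wild-type mice, against -3.89 and -4.92 in the deleted ones. The probe was not well above background on wild-type 14 and c-Jun-deleted 9, so its low values are uncertain. Its difference was -1.44 (SE 2.06), and without wild-type 11 it was 0.52. Parp14, Xaf1 and Trim30a differed by -0.49, -0.50 and -0.20 (SE 0.28, 0.31 and 0.18); Parp14 was the only 1 of them with no overlap, c-Jun-deleted 1 lying just under wild-type 5. Isg20, an RNA exonuclease, read 1.84, 1.54 and 1.59 in the wild-type mice, against 1.91 and 1.90 in the deleted ones. It was the only gene with both c-Jun-deleted arrays above the wild-type ones (difference 0.25, SE 0.16, limma adjusted p = 0.549).

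**Figure D2:**
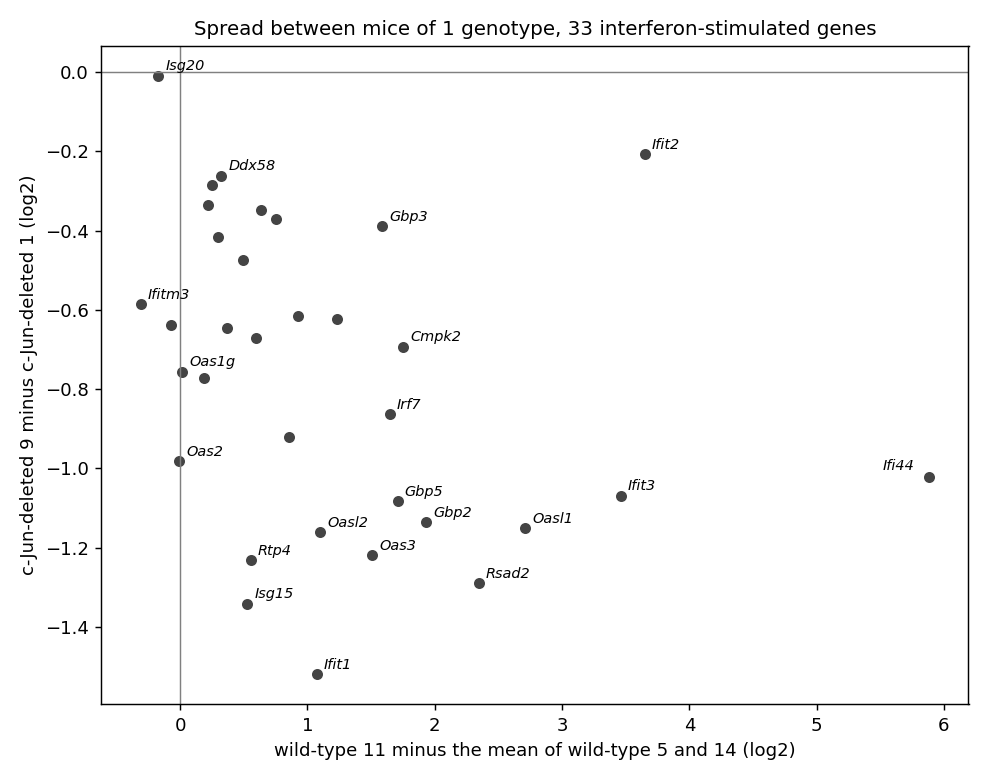
Each point is 1 of the 33 genes. The horizontal axis gives wild-type 11 minus the mean of wild-type 5 and 14 and the vertical axis c-Jun-deleted 9 minus c-Jun-deleted 1, both in log2; Ifi44, Ifit2 and Ifit3 lie far right, and Ifit1, Isg15 and Rsad2 lie lowest.

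Most genes were high on wild-type 11 and low on c-Jun-deleted 9, but those with the largest gaps on each array were only partly the same. The plot of spread within each genotype shows this. Wild-type 11 exceeded the mean of wild-type 5 and 14 by 3.65 for Ifit2, 3.46 for Ifit3, 2.71 for Oasl1 and 2.34 for Rsad2. For Ifi44 the excess was 5.88, but its probe was not well above background on wild-type 14, so that size is uncertain. The level on c-Jun-deleted 9 minus that on c-Jun-deleted 1 was lowest for Ifit1 (-1.52), then Isg15 (-1.34), Rsad2 (-1.29), Rtp4 (-1.23) and Oas3 (-1.22). For Ifit2 it was only -0.21. c-Jun-deleted 9 was below c-Jun-deleted 1 for all 33 genes, though for Isg20 only by 0.01, against 49.0% of all genes tested. Across the 33 genes the excess on wild-type 11 and the shortfall on c-Jun-deleted 9, which share no array, had Pearson's r of 0.31 and Spearman's rho of 0.39; genes are not independent replicates.

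**Figure D3:**
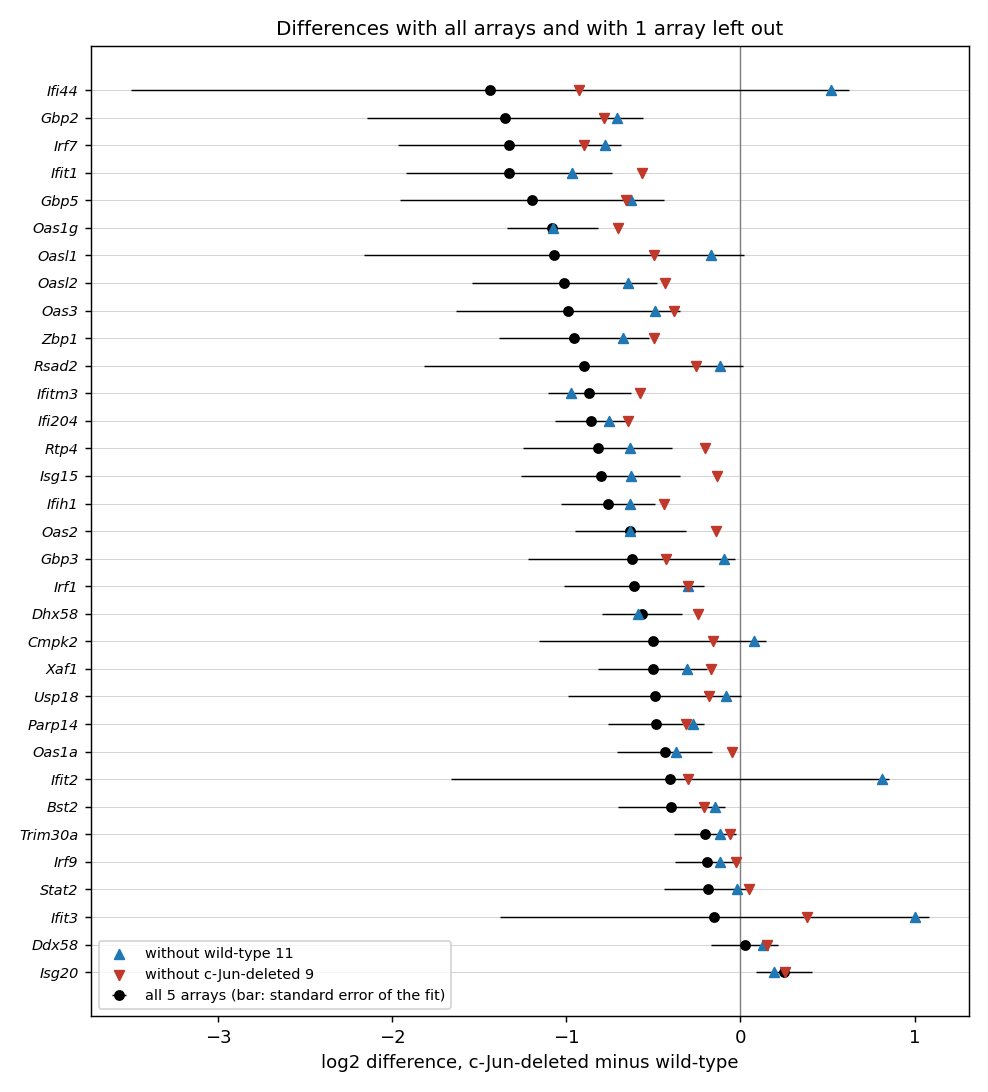
Log2 difference of each gene, c-Jun-deleted minus wild-type, with all 5 arrays (black, with the standard error of the limma fit), without wild-type 11 (blue) and without c-Jun-deleted 9 (red). Ifi44, Ifit2, Ifit3 and Cmpk2 pass from below to above 0 without wild-type 11, and most red points lie between the black points and 0.

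Second probes were compared where a gene had them. Of the 33 genes 9 had a pair of probes that passed the filter, and in 8 of these both probes gave the same direction, Ddx58 being the exception. The gap between the probes of a gene ranged from 0.04 for Isg15 (-0.80 and -0.84) to 0.31 for Cmpk2 (-0.50 and -0.81). Both probes of Zbp1, Irf1, Xaf1, Cmpk2, Ifih1, Isg15 and Oas1a were highest on wild-type 11, which did not hold for the pairs of Ddx58 and Isg20.

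Interferons themselves came next. Of 12 interferon genes listed, 10 had a probe, and those of Ifnb1, Ifna4 and Ifne were not well above background on any array. Ifng, the gene of interferon gamma, read -2.88, 1.11 and -2.29 in the wild-type mice, against -1.23 and -3.99 in the deleted ones. It was thus highest on wild-type 11 and lowest on c-Jun-deleted 9, the arrays at the ends of the interferon-stimulated genes. Both positions held for 7.51% of all genes tested, and a link between Ifng and the interferon-stimulated genes was not tested. The Ifng groups overlapped (difference -1.26, SE 1.51). Ifnl3, a type III interferon, read -1.71, -0.07 and -2.12 in the wild-type mice, against -1.34 and -1.22 in the deleted ones, again highest on wild-type 11. Ifna1, Ifna2, Ifna5, Ifnab and Ifnk differed by 0.06, 0.43, -0.11, 0.08 and -0.50 (SE 0.16 to 0.47). Interferon alpha genes are near-identical copies, so their probes may not be specific.

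The interferon receptors followed. Ifngr1, the ligand-binding chain of the interferon gamma receptor, read 5.43, 5.43 and 5.37 in the wild-type mice, against 4.84 and 4.75 in the deleted ones. Both c-Jun-deleted arrays were low to nearly the same degree, and wild-type 11 was not high (difference -0.61, SE 0.13, limma adjusted p = 0.248). Ifngr2, Ifnar1, Ifnar2 and Il10rb differed by -0.39, -0.18, -0.31 and 0.01 (SE 0.19 to 0.37). Ifnar1 was lowest on wild-type 11, at 3.84. Ifnlr1, the type III receptor chain, read -6.63, -3.22 and -6.08 in the wild-type mice, against -3.73 and -1.70 in the deleted ones, but was well above background on only 1 wild-type array.

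Of 46 genes of the pathway that were not on the main list 39 were tested, namely ligands, receptors, kinases, inducers of interferon, negative regulators and Isg15 conjugation enzymes. Of these 25 were lower, with a median of -0.18 (-0.12 without wild-type 11), 4 lower at an unadjusted p below 0.05 and 0 at the adjusted threshold. The share lower was 64.1%, near the 61.4% of all genes, and the share lower at an unadjusted p below 0.05 was 10.3% against 6.53%. The 4 were Ifngr1, Herc6, which attaches Isg15 (-0.97, SE 0.29), the kinase Ikbke (-0.64, SE 0.22) and the RNA receptor Tlr3 (-0.65, SE 0.24). Wild-type 11 was the highest array for 11 of the 39 genes (28.2%) and c-Jun-deleted 9 the lowest for 20 (51.3%), and both held for 6 (15.4%). Over all genes tested these shares were 22.3%, 28.5% and 7.51%.

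Interferon-stimulated genes that were not on the main list were described in the same way. Of 45 such genes, some of which, such as Herc6, are also on the pathway list, 41 were tested, and 36 of these were lower with a median of -0.50, or -0.14 without wild-type 11. Wild-type 11 was the highest array for 32 and c-Jun-deleted 9 the lowest for 27, and both held for 23. The median over all genes tested was -0.09 (-0.11 without wild-type 11), and 61.4% of them were lower. Wild-type 11 was highest for 22.3% of all genes tested and c-Jun-deleted 9 lowest for 28.5%, and both held for 7.51%. At an unadjusted p below 0.05, 3 of the 41 genes were lower and 1 was higher, and 0 passed the adjusted threshold. These shares, 7.32% lower and 2.44% higher, compare with 6.53% and 5.63% of all genes, so the count lower is about the background. The lower ones were Ifitm1 (-1.53, SE 0.21), Herc6 and Lgals3bp (-0.64, SE 0.24), and the higher one was Pml, a scaffold of nuclear bodies (0.55, SE 0.15). Ifitm1 read 2.21, 1.69 and 1.88 in the wild-type mice, against 0.29 and 0.50 in the deleted ones. Both c-Jun-deleted arrays were low (limma adjusted p = 0.217). Ifitm2 read 6.70, 5.92 and 6.76 in the wild-type mice, against 5.87 and 5.63 in the deleted ones, with c-Jun-deleted 1 just under wild-type 11. Near-identical members of the Ifitm family may share signal between probes.

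**Figure D4:**
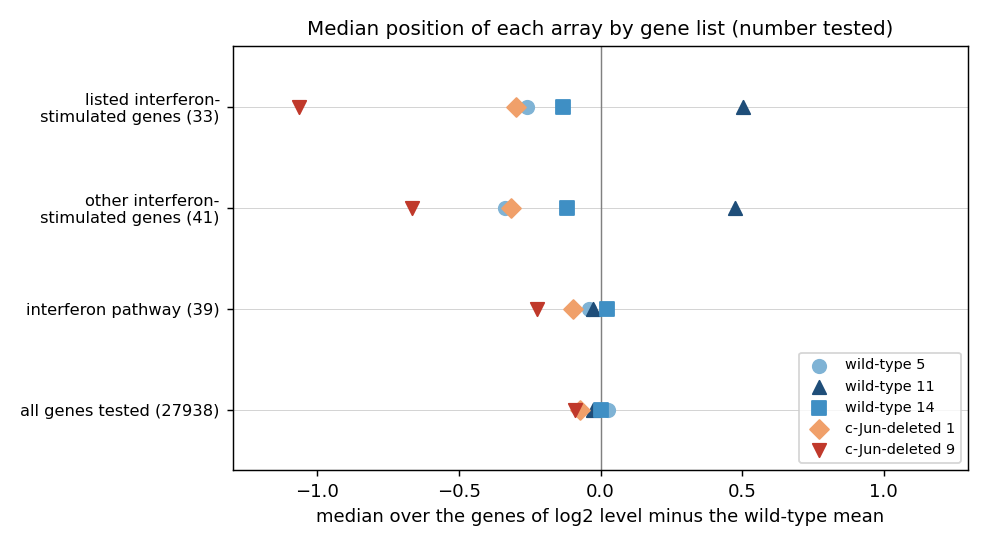
Median over each gene list of the log2 level minus the wild-type mean, for each array, with the number of genes tested in brackets. Wild-type 11 stands right and c-Jun-deleted 9 left for both lists of interferon-stimulated genes, while all arrays lie within 0.1 of 0 over all genes tested.

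Markers of macrophages and of other cell types also differed between the arrays. Of the 8 macrophage markers 5 were lower in c-Jun-deleted samples, with medians of -0.26 and -0.36 on c-Jun-deleted 1 and 9 relative to the wild-type mean. Their summed level was 889 to 1240 times the 75th percentile in wild-type mice, against 623 and 899 in the deleted ones. The 3 measured neutrophil markers had medians of -0.94 and -0.97 on the c-Jun-deleted arrays, and summed to 10.7 to 15.5 in wild-type mice against 13.3 and 7.21 in the deleted ones. The 7 measured T and NK cell markers had a median of 1.25 on wild-type 11 relative to the wild-type mean, -0.49 and -0.59 on wild-type 5 and 14, and 0.42 and 0.82 on c-Jun-deleted 1 and 9. Their summed level was 31.6 times the 75th percentile on wild-type 11, 17.2 and 11.9 on wild-type 5 and 14, and 44.9 and 57.3 on c-Jun-deleted 1 and 9. The 7 large peritoneal macrophage markers had a median of -1.16 on wild-type 11 and of 0.82 and 1.21 on c-Jun-deleted 1 and 9, with summed levels of 146 to 278 in wild-type mice against 333 and 413 in the deleted ones. The 5 measured markers of small peritoneal macrophages and monocytes were at 0.54 on wild-type 11 and at -1.28 and -1.34 on c-Jun-deleted 1 and 9, and their summed level was 145, 116 and 72.6 on wild-type 11, 5 and 14 and 76.8 and 84.0 on the c-Jun-deleted arrays. The 3 mesothelial markers were at 1.14 on wild-type 11 and at -1.31 and -1.67 on the c-Jun-deleted arrays, and their summed level lay between 0.244 and 1.56. The 6 plasmacytoid dendritic cell markers, from a cell that makes much interferon alpha, summed to 138 on wild-type 11 and 187 on c-Jun-deleted 9, with 157 and 146 on wild-type 5 and 14 and 160 on c-Jun-deleted 1. Of these 6 markers 3 were lower and 3 higher in c-Jun-deleted samples. Their medians relative to the wild-type mean were 0.19, 0.001 and -0.245 on wild-type 5, 11 and 14. On c-Jun-deleted 1 and 9 the medians were 0.09 and 0.35. Whether the signal of these markers came from that cell type was not tested. The share of any listed cell type in the levels of interferon-stimulated genes was not tested either.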

How the data were processed

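Total RNA (50 ng) was labelled with Cy3 and hybridised to 1-colour Agilent arrays, per the labels' protocols. The deposited scanner files hold spot intensity from Feature Extraction 11.5.1.1, background-subtracted with no scaling between arrays, per the file headers; their 0 or 1 flags, an other kind of value, were used only for filtering. The design's build is mm9. From these, log2 intensity minus each array's 75th percentile was computed, outlier spots were left out, and a probe had to be well above background on 2 or more of the 5 arrays. The brightest probe stood for a gene. Names came from transcript accessions in a RefSeq table of GRCm38.p6. The genotypes were tested with lmFit and eBayes of limma 3.58.1 under R 4.3.3 (2-sided, Benjamini-Hochberg over all 27938 genes tested), which was tested on simulated data. P-values measure the spread between these samples; with 5 arrays precision is low. The members and lists were chosen with earlier results of these data known. All members were accounted for; values on every array were given for the brightest gene and the one with the smallest p in each role, for all Ifit, Isg15, sensor and transcription factor genes, and, chosen after their values were seen, for Oasl1, Rsad2, Ifi44, Isg20 and Ifitm1. Outside the list, interferons, receptors and the 5 genes of smallest p per list were named. Of these, Ifitm2, Ifng, Ifnl3, Ifngr1 and Ifnlr1 were also given with values on every array, which no rule fixed beforehand. Medians and counts over lists carry no test. The authors' deposited table of group means was not used. Alternatives were normexp (on the median signal, as the files hold no mean signal), quantile and median scaling, no filter, the mean of probes, slide as a block, array weights and each array left out.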

Additional observations from a re-analysis of the deposited data

How the results depend on the processing

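The median of the 33 genes kept its direction under all 12 alternatives named in the processing, and 27 genes kept theirs under each. It was -0.57 with normexp, -0.55 with quantile normalization, -0.67 with median centring and -0.71 with the slide as a block. With single arrays left out it ranged from -1.06 to -0.30, the count of genes lower at an unadjusted p below 0.05 from 1 to 11, and the count without overlap from 10 to 26; a single c-Jun-deleted array was given the spread of the wild-type group. Comparing wild-type 5 and 14 with c-Jun-deleted 1, an alternative chosen after seeing the data, gave a median of 0.023 with 14 genes lower. Over all genes tested that median was -0.087. With array weights 1 gene, not on the list, passed the adjusted threshold, and Ifit2 and Ifit3 turned to 0.22 and 0.46. Ddx58 was at -0.017 with median centring and -0.075 with the mean of its probes. Over the arrays left out in turn, Cmpk2 ranged from -0.89 to 0.08, Ddx58 from -0.11 to 0.16, Ifi44 from -2.74 to 0.52, Ifit2 from -1.15 to 0.81, Ifit3 from -0.83 to 1.00 and Stat2 from -0.42 to 0.052. The cause of these reversals was not tested beyond the arrays left out. No paired analysis was possible because the numbers in the titles are not shared between the groups. Probes near background, such as those of Ifi44 and Oas1g, limit the size of a difference.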
